A study of Homo sapiens with 6 samples.

Results

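Pepsinogens and pancreatic elastase are digestive proenzymes. The genes described here are PGA3, PGA4 and PGA5, which encode pepsinogen A, and CELA3A, which encodes chymotrypsin-like elastase family member 3A. They were taken by symbol from the deposited table of the study and are 4 of its 753 genes. They were chosen because they differed between the groups in these same libraries, so their levels and folds are a description and carry no p-value. The cells were AsPC-1, an established human pancreatic cancer cell line. Poly(A)-enriched RNA was sequenced from 3 samples that carried the shTMPRSS4 lentivirus (short hairpin RNA against TMPRSS4, a membrane serine protease) and 3 that carried a control lentivirus (TMPRSS4 NC). The sample titles and the treatment label of the knockdown libraries name sh, while their descriptions carry the letters si, which the labels do not explain. The labels do not say whether the replicates were separate cultures, nor how many hairpins or clones were used. TMPRSS4 itself was not analysed here, so the knockdown was not checked.

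Pepsinogen A is made by chief cells of the stomach as an inactive precursor. In acid it cleaves off its own prosegment and becomes pepsin, an aspartic protease that opens the digestion of dietary protein. CELA3A is a serine protease precursor of the pancreatic acinar cell, packed into zymogen granules with trypsinogen and activated by trypsin in the gut. Neither family is a typical product of duct-like pancreatic tumour cells. Human pepsinogen A genes sit as near-identical copies side by side, and CELA3A sits beside its near copy CELA3B, so the sequences decide how far reads of each gene can be told apart.

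In GRCh38 with GENCODE release 29, all 3 pepsinogen genes lie on the plus strand of chromosome 11. PGA3 (ENSG00000229859) spans chr11:61203307-61213098, PGA4 (ENSG00000229183) chr11:61222216-61231927 and PGA5 (ENSG00000256713) chr11:61241042-61251448. The gaps between them are 9117 and 9114 bases. Each main transcript has 9 exons and a coding sequence of 1164 bases. Of these 1164 positions, 7 differ among the genes: PGA3 carries its own base at 2, PGA5 at 5, and PGA4 at 0. PGA3 and PGA4 were 99.83% identical over the coding sequence, PGA4 and PGA5 99.57%, and PGA3 and PGA5 99.40%. The longest coding stretch without any difference is 491 bases. The coding window below, positions 715 to 804 from the start codon, holds the most differing positions of any 90-base window, and capitals mark them. PGA3 and PGA4 read the same throughout it.
PGA3: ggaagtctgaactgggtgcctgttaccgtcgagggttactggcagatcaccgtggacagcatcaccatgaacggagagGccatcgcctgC
PGA4: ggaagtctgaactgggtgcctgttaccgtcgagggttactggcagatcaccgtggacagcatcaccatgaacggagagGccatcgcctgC
PGA5: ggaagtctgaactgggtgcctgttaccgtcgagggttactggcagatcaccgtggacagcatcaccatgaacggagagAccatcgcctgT
The first 45 coding bases hold 1 of the positions at which PGA3 stands apart, again in capitals, and there PGA4 and PGA5 read the same.
PGA3: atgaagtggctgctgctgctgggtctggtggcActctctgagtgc
PGA4: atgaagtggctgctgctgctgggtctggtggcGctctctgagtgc
PGA5: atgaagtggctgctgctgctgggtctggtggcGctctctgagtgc

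CELA3A (ENSG00000142789) spans chr1:22001656-22012539 on the plus strand, 3013 bases after the end of CELA3B. Both have 8 exons in the main transcript and a coding sequence of 810 bases, which differs at 38 positions (95.31% identical). The longest stretch without one is 89 bases. The 90-base window with the most of them, coding positions 229 to 318, holds 10, shown in capitals. It is printed to set the elastase pair beside the pepsinogens, whose densest window holds 2. CELA3B was not in the deposited table, so its level is not known here.
CELA3A: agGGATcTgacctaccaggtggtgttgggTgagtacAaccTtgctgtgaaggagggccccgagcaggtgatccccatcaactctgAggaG
CELA3B: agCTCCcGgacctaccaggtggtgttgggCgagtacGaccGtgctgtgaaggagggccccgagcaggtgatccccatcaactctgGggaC

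**Figure D1:**
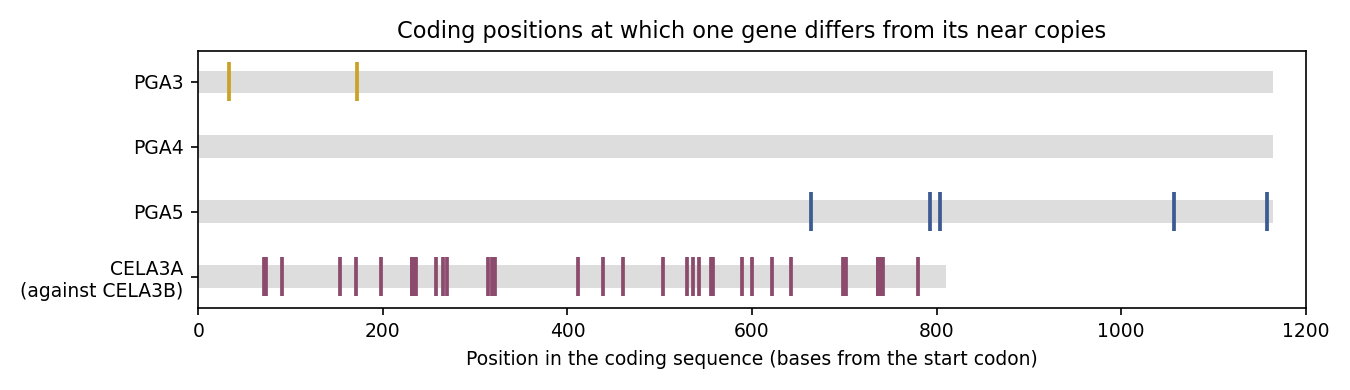
Coding positions at which 1 gene differs from its near copies, in bases from the start codon; grey bars are the coding sequences and vertical lines the differing positions. PGA3 has 2 such positions, PGA4 has 0, PGA5 has 5, and CELA3A has 38 against CELA3B.

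The main transcripts were also cut into words of 31, 50 and 100 bases, and each word was looked for in all GENCODE 29 transcripts. For PGA4, 1.8% of 31-base words and 6.06% of 100-base words occurred in no other gene. The shares were 8.03% and 23.3% for PGA3 and 11.6% and 27.3% for PGA5. Of the 100-base words of PGA4, 76.7% also occurred in PGA3 and 56.5% in PGA5. PGA4 had the fewest private words of the 3 pepsinogens at each length. CELA3A had 21.8% private words at 31 bases and 57.5% at 100 bases. It shared 30.5% of its 31-base words and 15.2% of its 50-base words with CELA3B, and none of its 100-base words. A further 42.5% of its 100-base words occurred in AL590556.3, an overlapping transcript on the same strand. AP003037.1 overlaps PGA4 and PGA5 on the same strand. It held 11.8% of the 100-base words of PGA5 and 4.12% of those of PGA4 and of PGA3. The sources used here do not give the read length or the authors' rule for reads that match several genes.

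The summed depth recovered from the table was 150500000 reads over the 3 shTMPRSS4 libraries (46800000 to 53300000 each) and 124600000 reads over the 3 control libraries (30200000 to 57200000 each). The authors had kept genes in the table whose levels differed at least 2-fold between the groups. All its genes also had a false discovery rate (FDR), as the authors computed it, of at most 0.049. Of its 753 genes, 73.7% were higher in shTMPRSS4 libraries, and the median log2 fold change over all of them was 1.34. All 4 digestive genes were higher, with every shTMPRSS4 library above every control library. That was the case for 549 of the 753 genes (72.9%) by depth-scaled count and for 72.8% by FPKM, while 25.1% had every shTMPRSS4 library below every control library. Since the table was selected on this contrast, nothing is read from the members' count.

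The pepsinogen A genes had reads in all shTMPRSS4 libraries and in no control library. PGA5 had 111, 89 and 87 reads in shTMPRSS4 replicates 1, 2 and 3, against 0, 0 and 0 reads in control replicates 1, 2 and 3. PGA4 had 62, 55 and 57 reads in the shTMPRSS4 replicates, against 0 in each control replicate. PGA3 had 66, 45 and 43 reads in the shTMPRSS4 replicates, against 0 in each control replicate. The groups did not overlap for any of these genes, and shTMPRSS4 replicate 1 held the most reads of each. As FPKM, the level per length and depth, PGA5 averaged 1.70 ± 0.144 in shTMPRSS4 libraries (SD, n = 3) and was listed at 0 in the control libraries. PGA4 averaged 1.01 ± 0.0551 FPKM and PGA3 0.783 ± 0.145 FPKM in shTMPRSS4 libraries (SD, n = 3 each), and both were listed at 0 in the control libraries. PGA5 lay above the median over all genes of the table, 1.35 FPKM in shTMPRSS4 libraries, and PGA4 and PGA3 lay below it. In those libraries PGA5 ranked 344, PGA4 434 and PGA3 475 of 753.

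**Figure D2:**
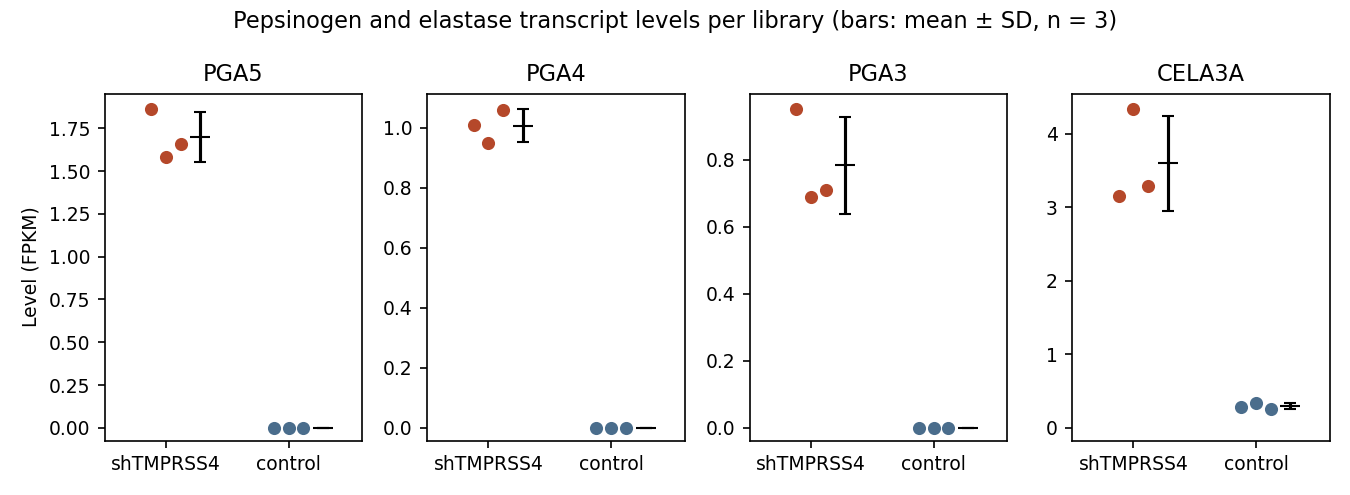
FPKM of PGA5, PGA4, PGA3 and CELA3A in each library, 3 shTMPRSS4 libraries on the left of each panel and 3 control libraries on the right; black bars are the mean ± SD. The pepsinogens lie between 0.69 and 1.86 FPKM in shTMPRSS4 libraries and at 0 in control libraries, and CELA3A between 3.15 and 4.34 against 0.26 to 0.34 FPKM.

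Because the control libraries held no read, the fold is a lower bound. Against a floor of 3 counts over the control group, PGA5 was at least 79.2-fold higher, PGA4 at least 48.0-fold and PGA3 at least 42.5-fold. Summed over the 3 genes, shTMPRSS4 libraries had 239, 189 and 187 reads, or 4.09 CPM over the group (counts scaled to the recovered depth), against 0, 0 and 0 reads in the control libraries. The floor of 3 counts at the summed control depth is 0.0241 CPM, and against it the summed pepsinogen A signal was at least 169.8-fold higher. If each shared read was counted once, the sum does not depend on how reads were divided among these paralogs. Whether shared reads were dropped or counted for several genes is not known. The bounds use the observed shTMPRSS4 counts and leave out their counting error. The 95% intervals of these counts were 254.8 to 322.2 reads for PGA5 and 567.3 to 665.6 for the sum. The floor of 3 lies below 3.689, the 95% upper limit for 0 control reads (exact Poisson), with which the bounds would be lower. The bounds also rest on the depth of the controls. Without control replicate 1, the deepest control, they were 42.8-fold for PGA5, 26.0-fold for PGA4, 23.0-fold for PGA3 and 91.8-fold for the sum. Scaled by TMM over the listed genes, the sum was at least 74.4-fold higher. In the authors' deposited table the log2 fold changes were 10.73, 9.98 and 9.61 for PGA5, PGA4 and PGA3, values that rest on a placeholder of 0.001 put in for a control mean of 0. In bulk RNA, expression in a few cells and low expression in many cannot be told apart.

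Of the 753 genes, 49 (6.51%) had 0 reads in all control libraries, and all 49 had reads in shTMPRSS4 libraries. The selection of the table requires this, since a gene with no reads in either group could not differ. The median summed shTMPRSS4 count of the 49 was 34, and 10 of them had over 100. By summed count PGA5 ranked 4, PGA4 ranked 6 and PGA3 ranked 8 among the 49, with 287, 174 and 154 reads. All 3 lay above that median, which itself depends on the selection, so these ranks are a description.

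**Figure D3:**
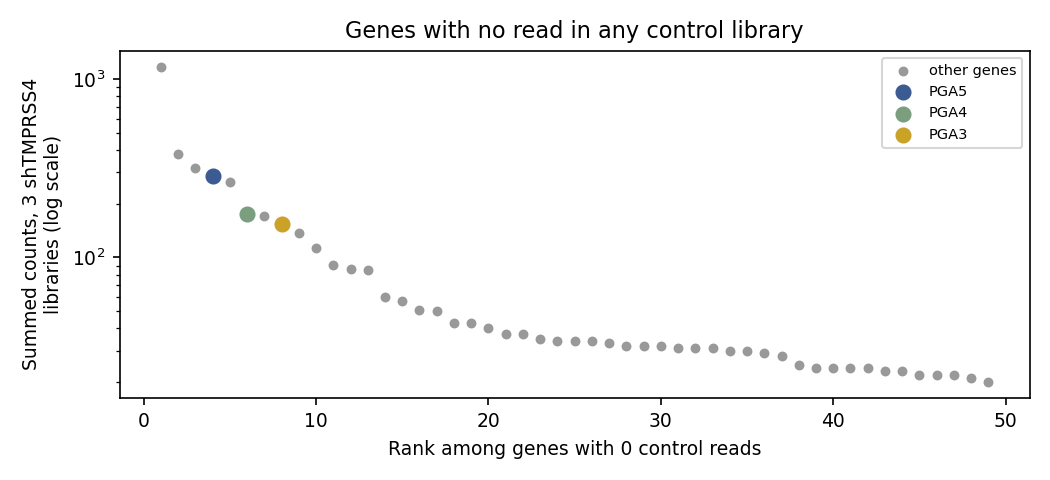
Summed counts over 3 shTMPRSS4 libraries (log scale) of the 49 genes with no read in any control library, ordered by count. PGA5, PGA4 and PGA3 stand at ranks 4, 6 and 8 with 287, 174 and 154 reads.

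The division of pepsinogen reads among the paralogs was alike in the shTMPRSS4 libraries. PGA5 took 46.4%, 47.1% and 46.5% of the summed pepsinogen counts in replicates 1, 2 and 3. PGA4 took 25.9%, 29.1% and 30.5%, and PGA3 27.6%, 23.8% and 23.0%. The exact binomial 95% intervals of single libraries span several points to either side (40.0% to 53.0% for PGA5 in replicate 1), wider than the spread between libraries. The intervals of PGA4 and PGA3 overlapped in each library, and the order of these genes by count was not the same in all of them: PGA3 was above PGA4 in replicate 1 and below it in replicates 2 and 3. By FPKM, PGA5 was above PGA4 without overlap (lowest PGA5 library 1.58, highest PGA4 library 1.06). PGA4 was above PGA3 by FPKM in 3 of 3 libraries, but the lowest PGA4 library and the highest PGA3 library touched at 0.95 FPKM. PGA4 took 28.3% of all pepsinogen reads (174 of 615) with the fewest private words, and how the authors assigned shared reads is not known. No control library had a pepsinogen read, so no share could be formed there.

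**Figure D4:**
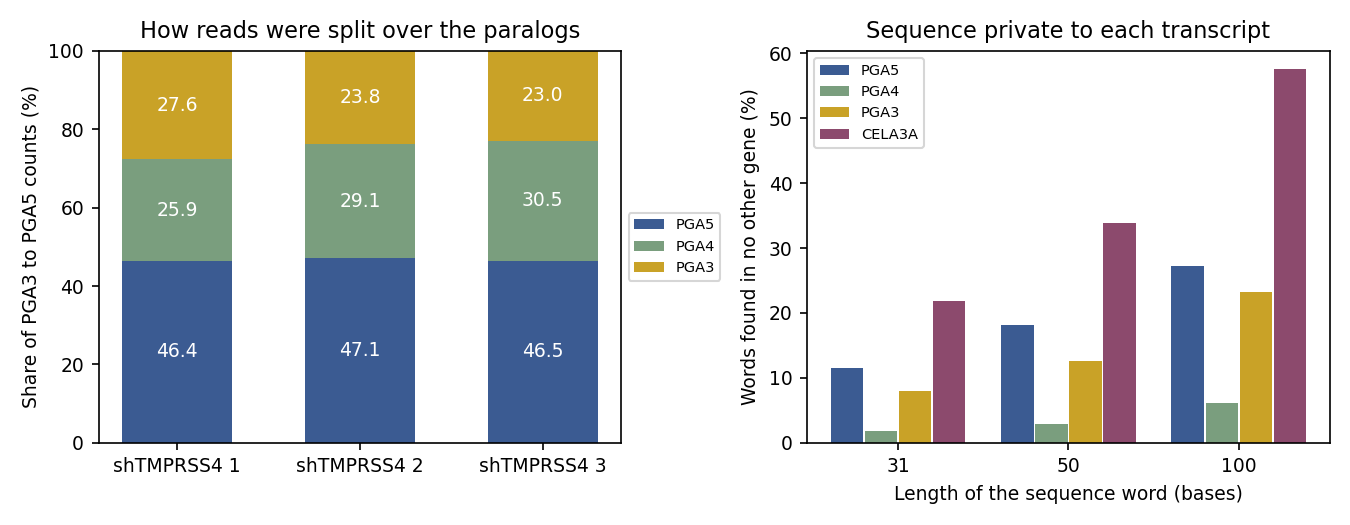
Left, the share of summed pepsinogen counts (%) that each paralog took in the 3 shTMPRSS4 libraries; right, the share (%) of 31-, 50- and 100-base words of each main transcript found in no other gene. PGA5 took between 46.4% and 47.1%, and PGA4 has the fewest private words, 6.06% at 100 bases.

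CELA3A was present at low level in control libraries and higher after shTMPRSS4. It had 106, 138 and 97 reads in shTMPRSS4 replicates 1, 2 and 3, against 10, 8 and 5 reads in control replicates 1, 2 and 3. The levels were 3.15, 4.34 and 3.29 FPKM in the shTMPRSS4 replicates, against 0.28, 0.34 and 0.26 FPKM in the control replicates. Every shTMPRSS4 library lay above every control library, and the lowest shTMPRSS4 level was 9.27 times the highest control level. CELA3A averaged 3.59 ± 0.650 FPKM in shTMPRSS4 libraries and 0.293 ± 0.0416 FPKM in control libraries (SD, n = 3 each), a ratio of means of 12.3. The log2 fold change was 3.53 ± 0.18 (SE, on depth-scaled counts plus 0.5). With 341 reads in shTMPRSS4 libraries and 23 in control libraries, the counting interval of the ratio ran from 8.05 to 19.6 (exact binomial, 95%). Scaled by TMM over the listed genes, the log2 fold change was 2.38.

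Replicates varied by different amounts. The coefficient of variation of FPKM over the shTMPRSS4 libraries was 18.1% for CELA3A, where counting error alone gives 9.38%, and replicate 2 was the high library. It was 18.5% for PGA3 against 14% from counting, 8.48% for PGA5 against 10.2%, and 5.47% for PGA4 against 13.1%. In shTMPRSS4 libraries CELA3A was above PGA5 by FPKM without overlap (lowest 3.15 against highest 1.86). By count, which is not scaled to length, it was above PGA5 in 2 of 3 libraries, with 106 reads against 111 for PGA5 in replicate 1. Per length, the pepsinogens together reached 3.49 ± 0.305 FPKM, near the 3.59 ± 0.650 FPKM of CELA3A (SD, n = 3 each). By depth-scaled count the 4 genes differed in which library was highest, replicate 1 for PGA3 and PGA5, replicate 3 for PGA4 and replicate 2 for CELA3A.

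The bases before the transcription start are shown because all 4 genes were higher in the same libraries, and to set the near-identical pepsinogen windows beside that of CELA3A. In the RefSeq promoter table for GRCh38.p14, all 4 genes matched by symbol. Over the 250 bases before the start, PGA4 and PGA5 had 0 mismatches and 4 gap columns, from a shift of the annotated start, and PGA3 and PGA5 had 7 mismatches (95.63% identical over the alignment). PGA5 and CELA3A were 43.89% identical. The windows on the plus strand are chr11:61203265-61203514 for PGA3, chr11:61240925-61241174 for PGA5 and chr1:22001407-22001656 for CELA3A. Capitals mark TATATAA and GATAAG in the pepsinogens and CACCTG in CELA3A, each searched on both strands; TATATAA was chosen after the sequences had been read. The RefSeq starts of PGA3 and PGA5 lie inside the GENCODE gene spans given above, so part of each of these windows is also annotated there as gene body.
PGA3: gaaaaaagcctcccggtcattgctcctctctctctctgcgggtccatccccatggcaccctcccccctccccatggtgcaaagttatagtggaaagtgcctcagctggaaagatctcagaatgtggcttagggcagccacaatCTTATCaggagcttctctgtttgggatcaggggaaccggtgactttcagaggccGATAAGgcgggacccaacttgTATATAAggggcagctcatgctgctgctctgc
PGA5: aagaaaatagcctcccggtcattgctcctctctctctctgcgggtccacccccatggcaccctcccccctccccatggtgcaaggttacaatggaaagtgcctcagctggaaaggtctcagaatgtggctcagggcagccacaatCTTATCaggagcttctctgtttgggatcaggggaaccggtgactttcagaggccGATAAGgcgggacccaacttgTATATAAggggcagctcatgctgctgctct
CELA3A: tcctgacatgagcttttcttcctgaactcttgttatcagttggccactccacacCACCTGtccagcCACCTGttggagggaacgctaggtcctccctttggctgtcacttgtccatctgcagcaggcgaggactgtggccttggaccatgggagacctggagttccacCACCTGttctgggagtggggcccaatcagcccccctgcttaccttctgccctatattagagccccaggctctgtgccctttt
GATAAG, a core read by GATA factors, occurred 2 times in the windows of PGA3, PGA4 and PGA5, at 107 and 53 bases before the start in PGA3 and at 105 and 51 in PGA5. It occurred at least once in 5.65% of the 35116 promoters of the table. TATATAA occurred once in each pepsinogen window, 32 bases before the start in PGA3, and in 2.42% of all promoters. CACCTG, an E-box of the kind read by basic helix-loop-helix factors, occurred 3 times in CELA3A, at 196, 184 and 82 bases before the start. The near copy CELA3B also had 3, at 197, 185 and 83 bases before its start, in a window 93.23% identical to that of CELA3A. CACCTG occurred at least once in 17.5% of promoters and at least 3 times in 0.464%. TATAAA was found in none of the 4 windows. The motifs do not overlap one another, and a match is a description of letters.

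Other chief cell and digestive genes were read from lists, as counts and values. Of 12 symbols of the gastric chief cell and pepsinogen list, which holds both CBLIF and GIF for intrinsic factor, 5 were in the table, 4 higher and 1 lower. Their median log2 fold change was 5.41 with the pepsinogens at their bounds, beside 1.34 over all genes of the table. Of all genes 73.7% were higher in shTMPRSS4 libraries. Of the 5 listed genes, 3 are the pepsinogens described here. TNFRSF19, a receptor that marks a subset of chief cells in mouse stomach, had 1.0, 1.23 and 1.08 FPKM in shTMPRSS4 replicates, against 0.04, 0.03 and 0.03 FPKM in control replicates. CTSE, the intracellular aspartic protease cathepsin E of gastric epithelium, had 8.46, 8.41 and 8.42 FPKM in shTMPRSS4 replicates, against 17.92, 18.32 and 18.09 FPKM in control replicates. It was lower, 2.15-fold by group means, where the secreted aspartic proteases of the pepsinogen family were higher. CTSE was also the 1 gene found of the 7 on the list of other aspartic proteases. Pepsinogen C, gastric lipase and intrinsic factor were on the list but not in the table, so their levels are not known here.

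Of 34 pancreatic acinar enzyme and zymogen granule genes, 2 were in the table, CELA3A and ZG16, both higher. Their median log2 fold change was 3.34 with ZG16 at its bound, beside 1.34 over all genes of the table. Of all genes 73.7% were higher. ZG16, a zymogen granule lectin that goblet cells also make, had 17, 10 and 5 reads in shTMPRSS4 replicates, against 0 in each control replicate, and was at least 8.83-fold higher. Of 8 acinar transcription factor symbols, of which BHLHA15 and MIST1 name the same gene, 0 were in the table. That does not tell whether they were expressed. The gastric epithelium list had 3 of 14 genes in the table, and all 3 were lower. Their median log2 fold change was -1.82, beside the 1.34 over all genes. Of all genes 25.1% had every shTMPRSS4 library below every control library. ANXA10, an annexin of gastric-type epithelium, averaged 30.7 ± 0.818 FPKM in shTMPRSS4 libraries and 107.0 ± 1.42 FPKM in control libraries (SD, n = 3 each). VSIG1, a junction protein of gastric epithelium, averaged 0.310 ± 0.113 FPKM in shTMPRSS4 libraries and 2.50 ± 0.310 FPKM in control libraries. CLDN18, a claudin of stomach and lung, had 20 reads in shTMPRSS4 libraries and 66 in control libraries. The pepsinogens were higher in the same libraries in which these 3 genes were lower.

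Among 12 inhibitors and activators of digestive proteases, 4 were in the table, 2 higher and 2 lower. Their median log2 fold change was 0.34, beside 1.34 over all genes of the table, 73.7% of which were higher. SPINK1, the trypsin inhibitor of the acinar cell, averaged 18.9 ± 1.22 FPKM in shTMPRSS4 libraries and 5.79 ± 0.753 FPKM in control libraries. SPINK4, a Kazal-type inhibitor of goblet cells, had 749, 737 and 687 reads in shTMPRSS4 replicates, against 5, 0 and 1 in control replicates. The serpins were lower. SERPINA3, antichymotrypsin, averaged 4.78 ± 0.763 FPKM in shTMPRSS4 libraries and 9.74 ± 1.09 FPKM in control libraries, and SERPINA4, the kallikrein inhibitor kallistatin, averaged 2.22 ± 0.214 FPKM in shTMPRSS4 libraries and 4.95 ± 0.296 FPKM in control libraries (SD, n = 3 each).

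**Figure D5:**
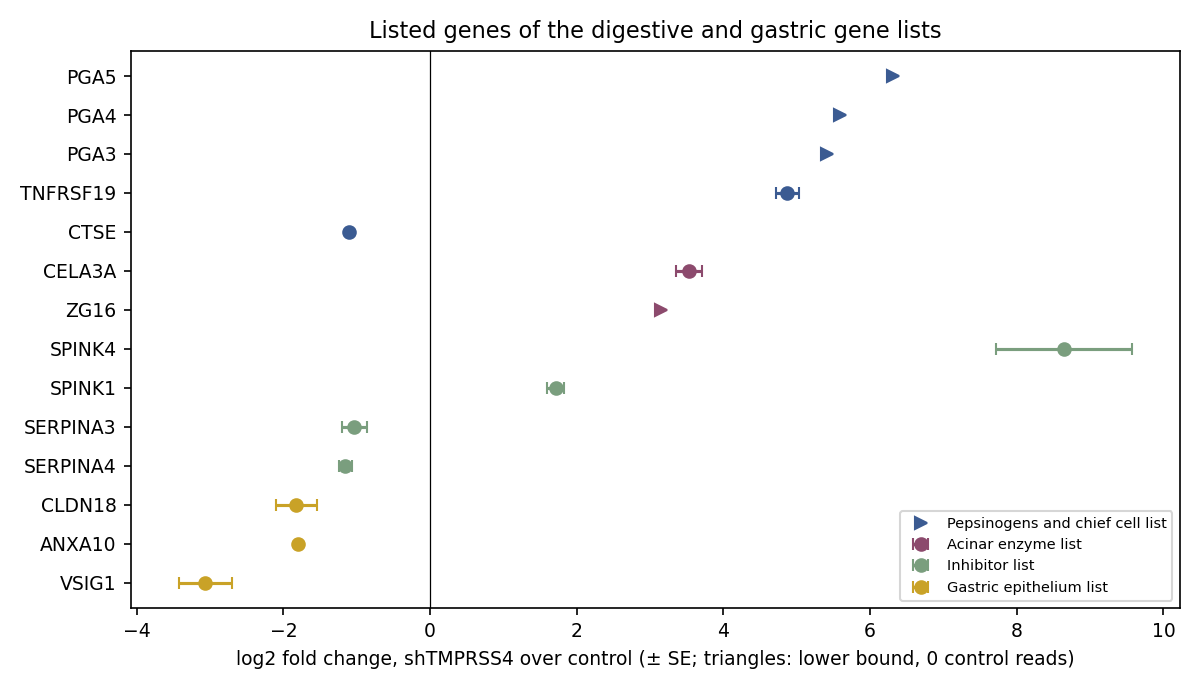
Log2 fold change of shTMPRSS4 over control for the 14 genes of the digestive and gastric lists that are in the table, with SE bars over 3 against 3 libraries; triangles are lower bounds for genes with 0 control reads. PGA5, PGA4, PGA3, TNFRSF19, CELA3A, ZG16, SPINK4 and SPINK1 lie to the right of 0, and CTSE, SERPINA3, SERPINA4, CLDN18, ANXA10 and VSIG1 to the left.

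Markers of other cell types were counted in the same table, of which 73.7% of genes were higher in shTMPRSS4 libraries. Of 8 goblet cell markers 5 were in the table, all higher (median log2 fold change 3.47, ZG16 at its bound), with a summed level of 166.5 to 170.2 FPKM in shTMPRSS4 libraries and 13.3 to 16.6 FPKM in control libraries; ZG16 was at 0 in the controls. Of 10 endocrine markers 3 were in the table, all higher, at a summed 12.6 to 14.1 FPKM in shTMPRSS4 libraries and 0.24 to 0.25 FPKM in control libraries, with PAX4 and GCG at 0 in the controls. NEUROG3, the transcription factor of endocrine progenitors, made up most of that sum, with 10.71, 11.59 and 12.37 FPKM in shTMPRSS4 replicates, against 0.25, 0.25 and 0.24 FPKM in control replicates. Of 7 chief cell marker symbols, the 3 in the table were the pepsinogens, and of 15 acinar markers the 1 in the table was CELA3A. Of 9 fibroblast, endothelial and immune markers 2 were in the table, 1 higher and 1 lower, summed to 1.7 to 2.19 FPKM in shTMPRSS4 libraries and 0.78 to 1.22 FPKM in control libraries. No marker of duct epithelium (7 symbols), gastric pit and mucous neck cells (6) or parietal cells (4) was in the table. The chief and parietal cell markers hold both symbols of intrinsic factor. Genes that did not differ between the groups are not in the table, so absence does not tell whether a gene was expressed. The part of these cell type programmes in the pepsinogen and elastase levels was not tested.

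The genes most alike in pattern were found by the root mean square difference of log2(FPKM + 0.1), centred on each gene's mean, over 6 libraries. Every gene of the table was selected for the same contrast, so the likeness is a description. PGA5 was nearest to PAX4, an endocrine transcription factor, at 0.0402 log2 units, followed by the receptor GPR142 at 0.158 and CAPN6 at 0.195. PAX4 had 1.73, 1.6 and 1.6 FPKM in shTMPRSS4 replicates and 0 in each control replicate. PGA4 was nearest to AKR1C2 (0.15), ATOH1 (0.163), a transcription factor of intestinal secretory cells, and the goblet cell peptide TFF3 (0.177). PGA3 was nearest to HMCN2 (0.127), AKR1C2 (0.158) and LCE1E (0.190). CELA3A was nearest to TNFRSF19 (0.124), NPTXR (0.151) and AKR1C2 (0.158). The added 0.1 compresses the fold of genes at 0 in the controls.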

How the data were processed

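The authors deposited 1 table of 753 genes giving read counts, which are whole numbers, and FPKM to 2 decimals in each of 6 libraries, per the file headers. It also holds the authors' log2 fold change and p-value columns, per the file headers, which were used to learn how genes had been selected: none lies within 1 log2 unit of equal levels, and the highest FDR is 0.049. The submitters' processing notes name Bowtie 0.12.2 with mm8 and mm9, which are mouse builds, while the gene identifiers are human Ensembl. The reference used for alignment is therefore uncertain, and the sources used here do not give the annotation, the counting tool or the test.

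Relative depth was recovered as the median ratio of count to FPKM over 159 genes with at least 200 counts in each library, and absolute depth from 12 genes with 1 GENCODE 29 transcript. Fold changes are differences of mean log2(depth-scaled count + 0.5), with SE over 3 against 3 libraries, and bounds use a floor of 3 counts over the control group. The members, the lists and the tests were chosen with earlier results of these data known. No p-value is given, since all genes were selected on this contrast. Fits with edgeR 4.0.16, DESeq2 1.42.0 and limma 3.58.1 gave alternative fold changes. The difference of means and the edgeR and DESeq2 fits were tested on simulated data. Every simulated gene was expected to have reads in both groups, so genes without control reads, such as the pepsinogens, were not covered. Named genes were the members, all list genes in the table and the 3 genes nearest to each member. Intervals cover counting error only. RefSeq (GRCh38.p14) supplied promoters and GENCODE 29 the transcripts and coordinates. The build of the deposited files is not stated, so coordinates are those of GENCODE.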

Additional observations from a re-analysis of the deposited data

How the results depend on the processing

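Across the alternatives run, all 67 log2 fold changes of the 4 genes stayed above 0, and no result reversed. Another pseudocount or model moved the pepsinogens most, whose fold over 0 control reads depends on the small value added, and another scaling moved CELA3A most. For PGA5, PGA4 and PGA3 the log2 fold changes were 7.45, 6.74 and 6.54. They were 7.03, 6.32 and 6.12 with TMM over the listed genes, 7.04, 6.33 and 6.13 with DESeq2 size factors over them, and 7.17, 6.46 and 6.26 with upper-quartile scaling. The edgeR fit on recovered depth gave 9.45, 8.73 and 8.55, the same with its filter on low counts, and the DESeq2 fit gave 8.70, 7.98 and 7.79. With limma on log2(FPKM + 0.1) they were 4.17, 3.47 and 3.13, with a pseudocount of 1 they were 6.46, 5.76 and 5.56, and with log2(FPKM + 0.01) PGA4 and PGA3 had 6.67 and 6.30. Summing the 3 paralogs before the fold change gave 8.55. With the replicate number as a block, edgeR gave 9.47, 8.73 and 8.60, and 3.58 for CELA3A. Over 648 genes with a mean count of at least 20, the deviations of same-numbered libraries correlated at -0.0132, 0.0145 and -0.0246. No pairing by number was seen, but the check cannot exclude that same-numbered samples were prepared together.

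CELA3A had a log2 fold change of 3.53, which was 2.38 with TMM, 2.40 with DESeq2 size factors, 2.83 with upper-quartile scaling and 3.22 with limma on log2(FPKM + 0.1). TMM and DESeq2 scaling moved the median of all genes by -1.18 and -1.16 and upper-quartile scaling by -0.715. The lower bounds of the fold, rescaled after the data were seen, were 34.7, 21.1, 18.6 and 74.4 for PGA5, PGA4, PGA3 and their sum with TMM, 35.4, 21.5, 19 and 75.9 with DESeq2 size factors, and 48.1, 29.2, 25.8 and 103 with upper-quartile scaling. By FPKM the shares of PGA5 and PGA3 were 48.7% and 22.3%, against 46.7% and 24.8% by count. Leaving out 1 library at a time gave 7.39 to 7.50 for PGA5, 6.70 to 6.78 for PGA4, 6.39 to 6.63 for PGA3 and 3.39 to 3.64 for CELA3A, and 3.46 for CELA3A without control replicate 3, the single library whose description label carries the code L3 where the others carry L4; the labels do not explain the code. The bounds ranged from 42.8 to 82.2 for PGA5, from 26.0 to 49.4 for PGA4, from 23.0 to 45.2 for PGA3 and from 91.8 to 177 for the sum, lowest without control replicate 1 because fewer control reads then stand behind the 0. The depth of the controls limits these bounds, and 23 control reads limit CELA3A.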

Other observations

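The gene length behind each FPKM value can be read back from the count, the FPKM and the recovered depth. It came to 1119 bases for PGA5, 1150 for PGA4, 1295 for PGA3 and 631 for CELA3A, shorter than the longest coding transcripts of 1519, 1748, 1748 and 887 bases in GENCODE 29. The mean length of the annotated coding transcripts is 1119 bases for PGA5, 1152 for PGA4, 1302 for PGA3 and 622 for CELA3A. The mean over all annotated transcripts is 850 bases for PGA5, 1165 for PGA4, 1112 for PGA3 and 631 for CELA3A, so neither mean gave the implied length of all 4 genes. The sources used here do not say how the authors set gene length. Recomputed on the longest coding transcript, the mean shTMPRSS4 levels were 1.25 for PGA5, 0.662 for PGA4, 0.582 for PGA3 and 2.56 for CELA3A FPKM, in the same order as by FPKM.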
